A study of Mus musculus with 12 samples.

Results

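A list of 41 genes of endothelial cells, the cells that line blood and lymphatic vessels, was followed across 12 subcutaneous tumors. The genes were listed by symbol for their known place in this cell type. Each was read from the probeset with the highest mean among those annotated to that symbol alone. Of the 41, 40 were found under such a probeset and 39 passed the filter on low values, out of 16573 genes tested. Selp, which encodes P-selectin, is not analysed here, and Mmrn1 lay under the filter. The 40 measured genes had 1 such probeset each.

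The tumors grew in nude mice on a normal diet from J2A cells grafted under the skin of the back, and were taken after 2 to 3 weeks according to the sample labels. J2A is a line of aortic myofibroblasts from C57BL/6 mice that lack p16, p19 and Vnn1, so none of the groups had an endogenous Vnn1 gene in its tumor cells. All cells carried a retrovirus with oncogenic H-RasV12 fused to GFP behind the CMV promoter. R tumors had a mock insert, VR tumors had intact Vnn1, and VdR tumors had Vnn1dCr, a form without catalytic activity. There were 4 tumors per group, numbered 1, 2, 4 and 5, and all were grafts of the same line, so that they replicate the graft and not the transduction. The grafted cells are mesenchymal, and vessels are supplied by the host mouse. RNA of the whole tumor mass is named in the paper, whereas the extraction text of the labels speaks of sorted cells. Array medians lay between 6.66 and 6.77 on the log2 scale, and arrays of the same group had Pearson correlations over genes from 0.988 to 0.996. Genes are not independent replicates. The arrays give log2 expression after RMA, and each value below is on that scale.

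Mature endothelium is held together by junction proteins such as VE-cadherin and PECAM1, and is kept quiet by angiopoietin signaling through the receptor TIE2, encoded by Tek. In sprouting vessels, tip cells lead toward VEGF and express genes such as Esm1, Apln, Angpt2 and Dll4. Lymphatic endothelium is specified by the transcription factor PROX1. Endothelial genes are widely driven by ETS factors such as ERG and FLI1.

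Endothelial markers were expressed in all groups. Cdh5, which encodes VE-cadherin, ranged from 10.18 to 11.30, and Pecam1 from 8.54 to 9.79. Each of the 32 blood vessel genes passed the filter, which was set at 5.38. The filter asks for only 4 arrays and 16573 of 19938 genes passed it, so passing does not mark the cell type. In RNA of whole tumors, fewer endothelial cells and less RNA per cell cannot be told apart.

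Promoter windows of 20 of the 41 genes were found in the RefSeq table used here (build GRCm38.p6). They are shown for the TIE receptors, for 2 further genes that were called higher in VR tumors and for Calcrl, because these genes did not move together. Each sequence gives the 250 bases upstream of the annotated start on the strand of the gene, and capitals mark ETS letters, CAGGAA or CCGGAA in either orientation. The windows are Tek (chr4:94739039-94739288, plus strand), Tie1 (chr4:118489850-118490099, minus strand), Eng (chr2:32646345-32646594, plus strand), Clec14a (chr12:58269259-58269508, minus strand) and Calcrl (chr2:84425267-84425516, minus strand).
Tek: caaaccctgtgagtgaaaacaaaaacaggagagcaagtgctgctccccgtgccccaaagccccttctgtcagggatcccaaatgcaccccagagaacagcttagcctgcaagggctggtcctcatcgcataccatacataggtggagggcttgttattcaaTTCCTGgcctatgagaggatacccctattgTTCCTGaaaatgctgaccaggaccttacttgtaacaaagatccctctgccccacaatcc
Tie1: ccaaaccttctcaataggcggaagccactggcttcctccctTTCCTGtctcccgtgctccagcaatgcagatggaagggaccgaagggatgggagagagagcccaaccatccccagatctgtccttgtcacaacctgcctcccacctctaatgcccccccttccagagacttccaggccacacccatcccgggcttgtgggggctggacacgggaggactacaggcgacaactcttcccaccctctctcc
Eng: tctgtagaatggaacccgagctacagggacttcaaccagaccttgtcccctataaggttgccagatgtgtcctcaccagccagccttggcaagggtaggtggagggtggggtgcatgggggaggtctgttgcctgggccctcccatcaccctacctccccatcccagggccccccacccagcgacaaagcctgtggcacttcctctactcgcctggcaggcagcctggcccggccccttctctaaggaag
Clec14a: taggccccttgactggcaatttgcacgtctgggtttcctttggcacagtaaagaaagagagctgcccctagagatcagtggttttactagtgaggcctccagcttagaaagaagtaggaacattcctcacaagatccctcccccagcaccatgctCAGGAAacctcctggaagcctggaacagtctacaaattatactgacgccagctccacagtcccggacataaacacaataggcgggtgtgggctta
Calcrl: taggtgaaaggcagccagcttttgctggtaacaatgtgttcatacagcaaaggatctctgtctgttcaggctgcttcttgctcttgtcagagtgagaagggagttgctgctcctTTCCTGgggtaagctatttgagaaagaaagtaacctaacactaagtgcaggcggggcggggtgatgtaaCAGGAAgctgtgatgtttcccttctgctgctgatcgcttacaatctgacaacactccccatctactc
Tek and Calcrl had 2 ETS matches each, Tie1 and Clec14a had 1 each, and Eng had 0. ETS letters were present in 15 of the 20 genes (75.0%), as compared with 38.2% of all 27025 genes of the table, over the same 250 bases upstream. The letters ACGTG of the hypoxia response element were found in 1 of the 20 genes (5.0%), as compared with 18.5% of all genes. The letters ACAAAG bound by SOX factors were found in 5 of 20 (25%), as compared with 18.6%. Matches describe letters and not bound sites, and the genes on both sides of the results below held ETS letters.

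The first comparison, VR versus R, asks what intact Vnn1 in the tumor cells goes along with. Between VR and R tumors, 8 of 39 endothelial genes differed at an adjusted p under 0.05 (limma, Benjamini-Hochberg over all genes tested), 7 higher and 1 lower in VR. This is 20.5% of the list, beside 21.1% of all genes tested, so the share called was close to the background. In the upward direction the background was 13.6%, and in the downward direction 7.48%. The median log2 difference of the 39 genes was 0.17, against -0.015 over all genes tested. The genes called higher were Tek, Ptprb, Eng, Clec14a, Plvap, Cd93 and Aplnr, and the gene called lower was Cd34. Core identity genes, among them Pecam1, Cdh5, Tie1, Erg and Vwf, were not called.

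**Figure D1:**
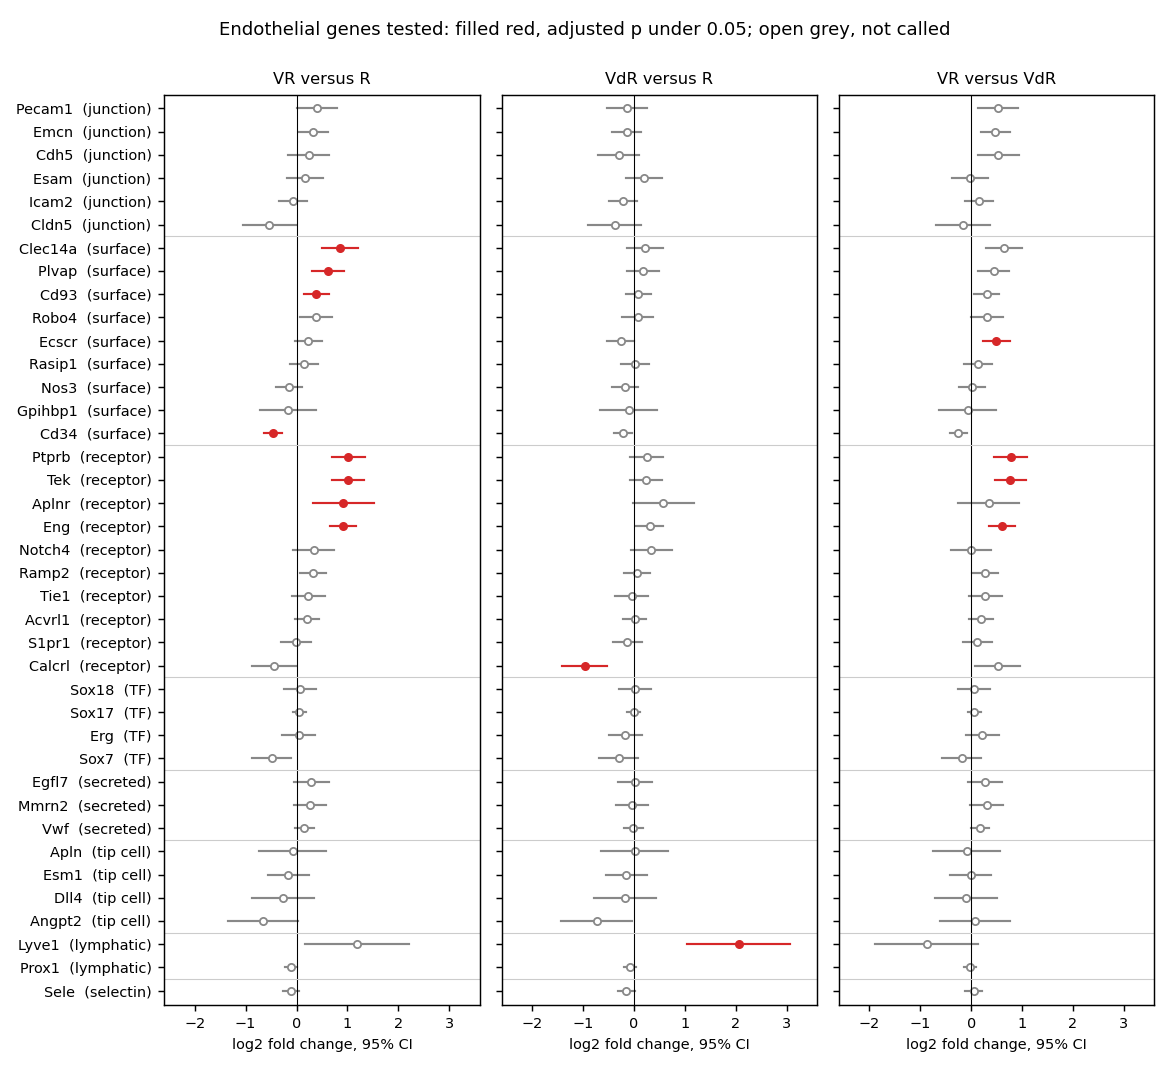
Log2 differences of the 39 tested endothelial genes (rows, grouped by role) between VR and R, VdR and R, and VR and VdR tumors, with 95% confidence intervals from limma (4 tumors per group). Filled red points passed an adjusted p of 0.05; in VR versus R these are 7 genes to the right of 0 and Cd34 to the left, and no tip cell gene is among them.

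Tek encodes TIE2, the angiopoietin receptor of the endothelium. Its log2 values in tumors 1, 2, 4 and 5 were 7.57, 7.30, 7.26 and 7.49 in R, 7.74, 8.03, 7.33 and 7.47 in the VdR tumors, and 8.38, 8.46, 8.64 and 8.17 in VR. Every VR tumor lay above every R and every VdR tumor, whereas VdR and R overlapped. The difference between VR and R was 1.01 (SE 0.14, adjusted p = 6.69e-04, limma).

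Ptprb encodes VE-PTP, the phosphatase that acts on TIE2 and VE-cadherin. In the same order its values were 8.61, 8.80, 8.37 and 8.48 in R, 8.92, 9.13, 8.71 and 8.50 in the VdR tumors, and 9.30, 9.57, 9.92 and 9.55 in VR. The 4 VR tumors again stood above all others, and the difference from R was 1.02 (SE 0.15, adjusted p = 8.31e-04, limma).

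Tie1, the partner receptor of TIE2 in the same complex, did not share this pattern. Its values were 8.54, 8.53, 8.21 and 8.14 in R, 8.37, 8.43, 8.44 and 8.02 in the VdR tumors, and 8.33, 8.35, 8.73 and 8.93 in VR. The groups overlapped, and the difference between VR and R was 0.23 (SE 0.15, adjusted p = 0.279, limma). As a description, Tek minus Tie1 ran from -1.22 to -0.64 in R, from -1.10 to -0.40 in VdR and from -0.76 to 0.11 in VR. This difference was higher in VR tumors 1, 2 and 4 than in any R tumor, and VR tumor 5 lay within the range of R. The levels of both probesets cannot be set against each other, and only the shift between tumors is meant.

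Eng encodes endoglin, a co-receptor for TGF-beta family ligands that is also made by mesenchymal and myeloid cells. Its values were 10.02, 9.92, 9.82 and 9.72 in R, 10.32, 10.31, 10.17 and 9.92 in the VdR tumors, and 10.57, 10.81, 11.09 and 10.64 in VR. VR tumors did not overlap with the other groups, and VdR tumors overlapped with R by the lowest of them. VR differed from R by 0.91 (SE 0.12, adjusted p = 4.18e-04, limma). Acvrl1, which encodes the ALK1 receptor that signals with endoglin, differed by 0.21 (SE 0.11, adjusted p = 0.189, limma). Eng minus Acvrl1 ran from 1.43 to 1.70 in R, from 1.69 to 2.03 in VdR and from 2.11 to 2.42 in VR, given as a description.

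Clec14a encodes a C-type lectin of tumor endothelium. Its values were 6.88, 6.84, 6.51 and 6.47 in R, 6.85, 7.37, 6.73 and 6.60 in the VdR tumors, and 7.32, 7.54, 7.83 and 7.45 in VR. VR tumors lay above every R tumor, while VdR tumor 2 reached into the VR range. The difference between VR and R was 0.86 (SE 0.16, adjusted p = 0.00327, limma).

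Cd34 was the gene called in the opposite direction. It encodes a sialomucin of capillary endothelium that fibroblasts and progenitor cells also carry. Its values were 12.59, 12.36, 12.63 and 12.57 in R, 12.26, 12.33, 12.29 and 12.41 in the VdR tumors, and 12.18, 11.94, 12.20 and 11.96 in VR. The VR tumors were the 4 lowest of all 12. Cd34 fell by 0.47 on the log2 scale in VR versus R (SE 0.08, adjusted p = 0.00175, limma).

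Tek, Ptprb, Eng, Clec14a and Cd34 were the 5 genes of the list whose VR and R tumors did not overlap (12.8%), beside 25.8% of all genes tested. They kept their call in each of the 19 settings described under the processing.

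**Figure D2:**
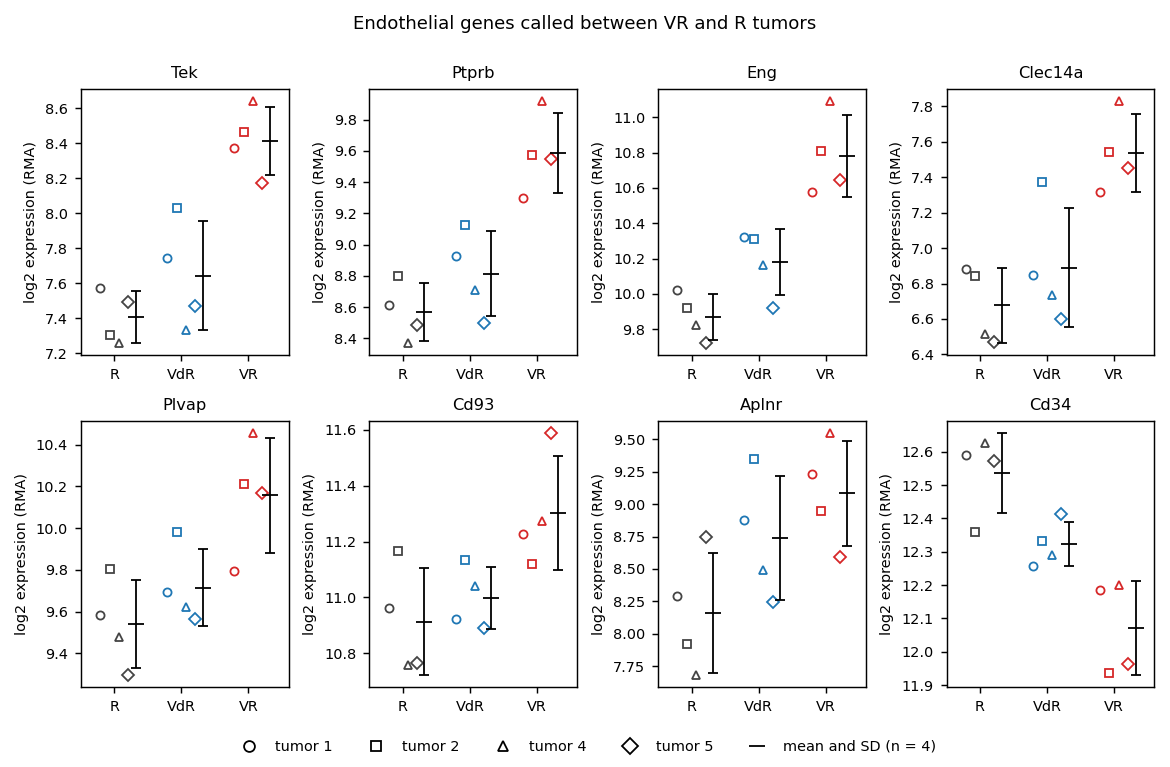
Log2 expression (y axis) of the 8 endothelial genes called between VR and R tumors, 1 symbol per tumor in the R, VdR and VR groups, with the mean and SD of 4 tumors beside them. The VR symbols of Tek, Ptprb and Eng lie above all R and VdR symbols, those of Cd34 lie below all others, and those of Plvap, Cd93 and Aplnr overlap with R.

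The other calls were less separated. Plvap, which encodes the diaphragm protein of fenestrated capillaries, had values of 9.58, 9.80, 9.48 and 9.29 in R, 9.69, 9.98, 9.62 and 9.57 in the VdR tumors, and 9.79, 10.21, 10.46 and 10.17 in VR. VR tumor 1 lay just under R tumor 2. VR differed from R by 0.62 (SE 0.14, adjusted p = 0.00939, limma), and it was not called by the methods' t-test. Cd93, a C-type lectin of endothelium and myeloid cells, had values of 10.96, 11.16, 10.76 and 10.77 in R, 10.92, 11.14, 11.04 and 10.89 in the VdR tumors, and 11.23, 11.12, 11.27 and 11.59 in VR. Only VR tumor 2 fell within the range of R. The difference was 0.39 (SE 0.11, adjusted p = 0.0272, limma), and the call was lost without R replicate 4 or 5 or VR replicate 4 or 5, in a fit of only the groups compared, with the methods' t-test and at a threshold of 0.01.

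Aplnr encodes the apelin receptor. It had values of 8.29, 7.92, 7.68 and 8.74 in R, 8.88, 9.34, 8.49 and 8.25 in the VdR tumors, and 9.23, 8.95, 9.55 and 8.59 in VR. R tumor 5 lay above VR tumor 5, and the other R tumors lay below all VR tumors. The difference was 0.92 (SE 0.28, adjusted p = 0.0322, limma), and the call was lost without R replicate 1, 2 or 4 or VR replicate 1, 2 or 4. Aplnr was not called either with the replicate number as a block, with the methods' t-test or at a threshold of 0.01.

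Genes grouped under the junctions gave no call in VR versus R. By limma 0 of 6 passed, beside 21.1% of all genes tested. A count of 0 in so few genes does not set them apart from that share. At an unadjusted p under 0.05 the count was 3 of 6, and the methods' t-test called 0 of 6. Pecam1, an adhesion receptor used throughout to mark endothelium, had values of 9.49, 9.46, 9.07 and 8.54 in R, 8.85, 9.17, 9.08 and 8.94 in the VdR tumors, and 9.31, 9.46, 9.60 and 9.79 in VR. The R tumors spread over the widest range, and R tumor 5 was the lowest of all 12. The difference between VR and R was 0.40 (95% CI 0.0019 to 0.79, adjusted p = 0.142, limma).

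Cdh5 had values of 11.13, 11.03, 10.74 and 10.18 in R, 10.38, 10.60, 10.59 and 10.33 in the VdR tumors, and 10.87, 10.72, 11.14 and 11.30 in VR. As with Pecam1, R tumor 5 was the lowest, and the other R tumors lay within the range of VR. The difference was 0.24 (95% CI -0.16 to 0.64, adjusted p = 0.371, limma). Of the other genes placed in this group, the sialomucin gene Emcn differed by 0.33 (adjusted p = 0.0934, limma) and the tight junction gene Cldn5 by -0.54 (adjusted p = 0.133, limma). Cldn5 was called lower without R replicate 5, with a difference of -0.73, and also with array weights.

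The transcription factors of the endothelium gave no call. By limma 0 of 4 passed in VR versus R, beside 21.1% of all genes tested, which so few genes cannot be set apart from. At an unadjusted p under 0.05 the count was 1 of 4, and 0 of 4 were called by the methods' t-test. Erg, the ETS factor of mature endothelium, differed by 0.05 between VR and R (95% CI -0.28 to 0.37, adjusted p = 0.847, limma). The SOXF genes Sox17 and Sox18 differed by 0.05 and 0.07. Sox7, the third of this family, differed by -0.48 (adjusted p = 0.0713, limma). It was called lower without R replicate 5 (-0.65) or VR replicate 5 (-0.64), and also with array weights.

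The secreted proteins gave no call either, 0 of 3 beside the same 21.1% of all genes tested. At an unadjusted p under 0.05 the count was 0 of 3, and the methods' t-test called 0 of 3. Vwf, which encodes the von Willebrand factor, had values of 7.46, 7.18, 7.29 and 7.30 in R, 7.37, 7.33, 7.32 and 7.18 in the VdR tumors, and 7.49, 7.36, 7.68 and 7.33 in VR. All groups overlapped, and VR differed from R by 0.16 (95% CI -0.024 to 0.34, adjusted p = 0.201, limma). Egfl7 and Mmrn2, a matrix protein and the matrix ligand of CLEC14A and CD93, differed by 0.29 and 0.27. Among genes grouped as surface or receptor genes that were not called, the differences ran from -0.44 for Calcrl to 0.39 for Robo4, a guidance receptor of quiescent vessels.

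**Figure D3:**
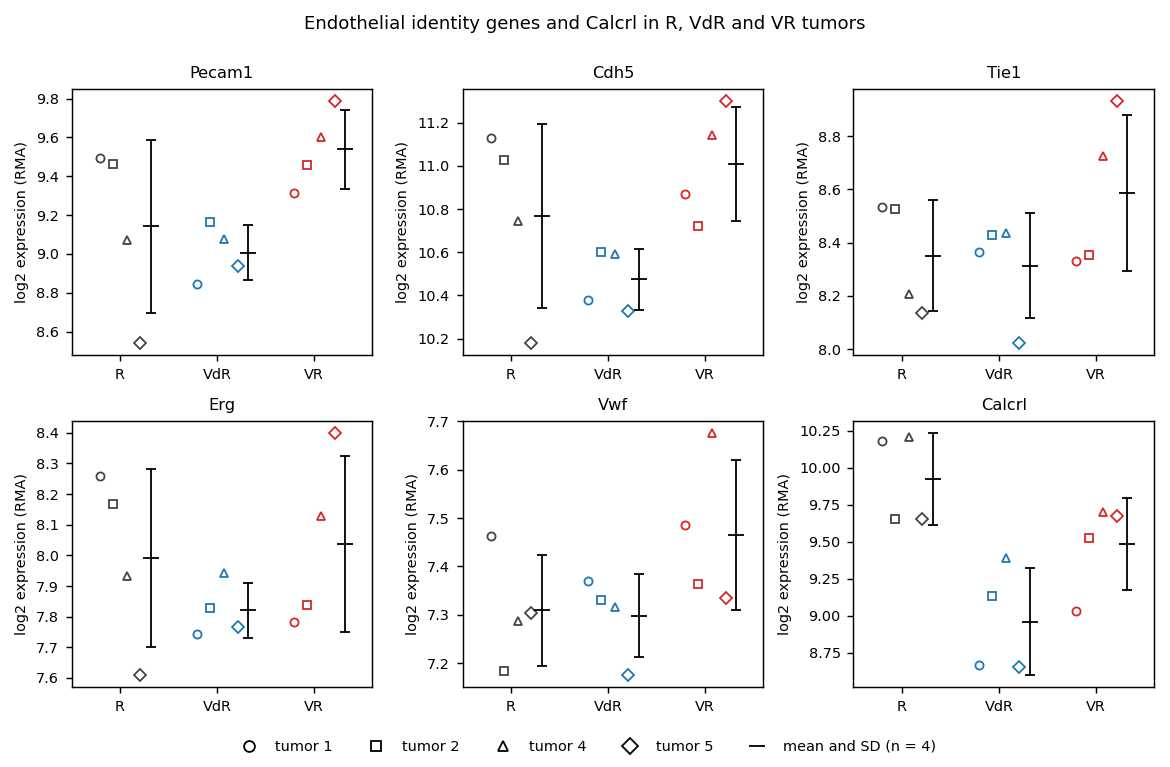
Log2 expression (y axis) of 5 identity genes of the endothelium and of Calcrl, 1 symbol per tumor in the R, VdR and VR groups, with the mean and SD of 4 tumors. R tumor 5 is the lowest symbol for Pecam1, Cdh5 and Erg, and the VdR symbols of Calcrl lie below all R symbols.

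Between VdR and R tumors, 2 of 39 genes were called, 1 higher and 1 lower. This is 5.13% of the list, beside 9.38% of all genes tested (6.58% upward and 2.81% downward), and the median difference of the list was -0.036 against 0.0038 over all genes. The comparison shares its R tumors with the one before. Calcrl was the gene called lower. It encodes the receptor for adrenomedullin and CGRP, whose choice of ligand is set by the RAMP protein bound to it. Its values were 10.18, 9.66, 10.21 and 9.66 in R, 8.66, 9.13, 9.39 and 8.65 in the VdR tumors, and 9.03, 9.52, 9.70 and 9.68 in VR. Every VdR tumor lay below every R tumor, and the VR tumors overlapped with both. Calcrl fell by 0.97 on the log2 scale in VdR versus R (SE 0.20, adjusted p = 0.0104, limma). It was the only gene of the list without overlap in this comparison (2.56%), beside 14.2% of all genes tested. Cdh5 differed by -0.29 (adjusted p = 0.383, limma) and was called lower only with array weights or without R replicate 5. Cd34, Ecscr and Angpt2 were each called lower in 1 other setting only.

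Ramp2, the partner of Calcrl in the adrenomedullin receptor, differed by 0.06 between VdR and R (SE 0.12, adjusted p = 0.814, limma). Adm, the ligand of this receptor and a target of hypoxia, had values of 9.66, 8.73, 9.79 and 7.60 in R, 7.58, 7.42, 7.99 and 7.68 in the VdR tumors, and 7.23, 7.33, 7.40 and 7.91 in VR. R tumor 5 was the R tumor that lay with the other groups. In VdR versus R the difference of Adm was -1.28 (adjusted p = 0.0545, limma), and in VR versus R it was called, at -1.48 (adjusted p = 0.0158, limma). Tek, Ptprb, Eng and Clec14a, which were called between VR and R, differed between VdR and R by 0.24, 0.25, 0.31 and 0.21, with adjusted p of 0.360, 0.360, 0.138 and 0.484 in the same limma model.

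Between VR and VdR tumors, whose inserts differ in catalytic activity, 4 of 39 genes were called, all higher in VR. This is 10.3% of the list, beside 3.44% of all genes tested (1.77% upward and 1.67% downward). The median difference of the list was 0.17, against -0.018 over all genes. Tek differed by 0.77 (SE 0.14, adjusted p = 0.0188), Ptprb by 0.77 (SE 0.15, adjusted p = 0.0223) and Eng by 0.60 (SE 0.12, adjusted p = 0.0236) in limma. These 3 genes had no overlap between VR and VdR, as their values above show. Some or all of their calls were lost when any of several tumors was left out, which also leaves fewer samples. The count of called genes was 0 without VR replicate 2 or without VR replicate 4, and 1 without VdR replicate 4 or without VdR replicate 5. The differences themselves stayed between 0.50 and 0.90 over the settings tried.

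Ecscr, which encodes a surface protein of endothelial cells, was the fourth. It had values of 9.32, 9.14, 9.05 and 9.10 in R, 8.72, 8.78, 8.73 and 9.33 in the VdR tumors, and 9.37, 9.28, 9.51 and 9.37 in VR. VdR tumor 5 lay with VR, and the other VdR tumors were the lowest of all 12. The difference between VR and VdR was 0.49 (SE 0.12, adjusted p = 0.0478, limma), and the call held in 6 of 19 settings only. Clec14a differed by 0.65 and missed the threshold (adjusted p = 0.0510, limma).

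Pecam1, Cdh5 and Emcn did not overlap between VR and VdR either, but were not called, with differences of 0.53 (adjusted p = 0.126, limma), 0.53 (adjusted p = 0.132, limma) and 0.47 (adjusted p = 0.0662, limma). Emcn had values of 10.61, 10.79, 10.67 and 10.76 in the VdR tumors, and 10.98, 11.15, 11.41 and 11.20 in VR. With Tek, Ptprb, Eng and Cd34, which was lower in VR, 7 of 39 genes had no overlap (17.9%), beside 12.6% of all genes tested.

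The tip cell genes were set against the blood vessel genes. By limma 0 of 4 tip cell genes were called in VR versus R, in VdR versus R and in VR versus VdR. Of all genes tested, 21.1%, 9.38% and 3.44% were called in these comparisons, and a count of 0 among 4 genes does not differ clearly from that. At an unadjusted p under 0.05 the counts of tip cell genes were 0, 1 and 0, and the methods' t-test called 0 in each. In VR versus R all 4 differences were below 0, with a median of -0.22, whereas the 32 blood vessel genes had a median of 0.23.

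Angpt2, the angiopoietin that opposes TIE2 signaling at sprouts, had values of 8.32, 8.15, 7.85 and 7.27 in R, 7.04, 7.08, 7.31 and 7.25 in the VdR tumors, and 6.79, 6.89, 6.90 and 8.40 in VR. VR tumor 5 was the highest of all 12, while the other VR tumors were the lowest. VR differed from R by -0.65 (95% CI -1.35 to 0.038, adjusted p = 0.165, limma). Without VR replicate 5 Angpt2 was called lower, with a difference of -1.04. With array weights and all tumors kept it was called lower in VR versus R and in VdR versus R. In that fit R tumor 1, the highest R tumor for Angpt2, had a weight of 3.77, and the other R tumors had 0.46 to 0.87.

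Esm1, a proteoglycan gene of tip cells, had values of 11.58, 11.67, 11.47 and 10.69 in R, 11.23, 11.29, 11.20 and 11.09 in the VdR tumors, and 10.82, 11.28, 11.25 and 11.41 in VR. R tumor 5 was the lowest of all and the other R tumors were the highest. The difference between VR and R was -0.16 (adjusted p = 0.555, limma), and -0.38 with a call without R replicate 5.

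Apln, the ligand of the apelin receptor, had values of 10.20, 10.28, 9.87 and 8.60 in R, 9.77, 9.69, 9.78 and 9.75 in the VdR tumors, and 9.52, 9.40, 9.48 and 10.23 in VR. R tumor 5 and VR tumor 5 lay apart from their groups, in opposite directions. VR differed from R by -0.08 (adjusted p = 0.874, limma), beside the call of its receptor gene Aplnr in the upward direction.

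Dll4, the Notch ligand of tip cells and arteries, had values of 9.13, 9.03, 8.91 and 7.98 in R, 8.24, 8.59, 8.88 and 8.67 in the VdR tumors, and 8.15, 8.04, 8.55 and 9.22 in VR. Here too R tumor 5 was the lowest and VR tumor 5 the highest of all. The difference between VR and R was -0.27 (adjusted p = 0.507, limma).

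Per tumor, the mean of the tip cell genes minus the mean of the blood vessel genes was 0.84, 0.94, 0.79 and 0.13 in R, 0.39, 0.33, 0.50 and 0.58 in the VdR tumors, and 0.01, 0.03, -0.12 and 0.71 in VR. The means were 0.68 ± 0.37 (SD, n = 4) in R, 0.45 ± 0.11 (SD, n = 4) in VdR and 0.16 ± 0.37 (SD, n = 4) in VR. Apart from the tumors numbered 5, each R tumor lay above each VR tumor. As a description, VR minus R was -0.52, and it was -0.70 without R replicate 5 and also without VR replicate 5. Leaving out R tumor 2 (0.94) or VR tumor 4 (-0.12) instead made VR minus R smaller in size. With Aplnr and Plvap, which sprouting vessels also express, counted as tip cell genes, it was -0.13.

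**Figure D4:**
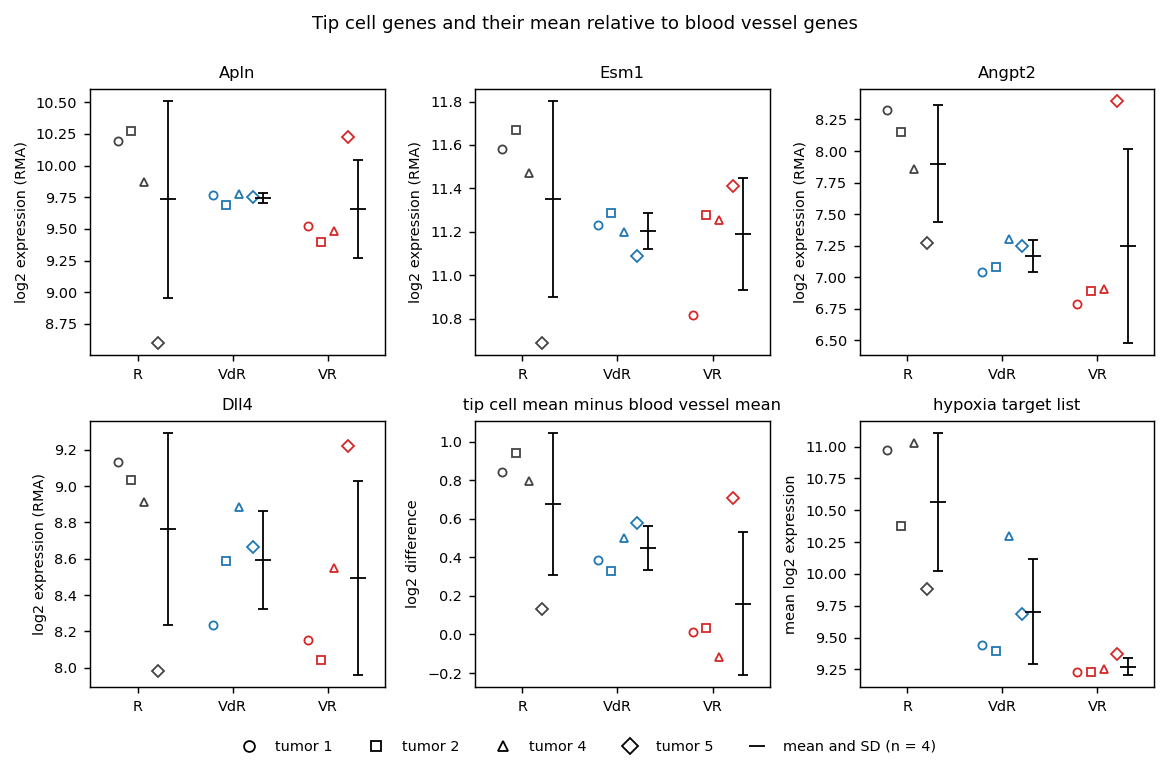
Log2 expression (y axis) of the 4 tip cell genes, their mean minus the mean of 32 blood vessel genes, and the mean of 12 hypoxia target genes, 1 symbol per tumor with the mean and SD of 4 tumors per group. R tumor 5 (diamond) lies lowest and VR tumor 5 highest of its group in each of the tip cell panels.

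A list of 12 hypoxia targets was followed beside the tip cell genes. It was called lower for 12 of 12 genes in VR versus R (100%, beside 7.48% of all genes tested). In VdR versus R, 4 of 12 were called lower (33.3%, beside 2.81%). Its mean per tumor ran from 9.88 to 11.03 in R, from 9.40 to 10.30 in VdR and from 9.23 to 9.37 in VR, and R tumor 5 was the lowest R tumor there as well. Its 3 genes with the lowest adjusted p in VR versus R were Ankrd37 (-1.39), Ero1l (-1.61) and Hk2 (-0.78). The part of hypoxia in the tip cell values was not tested.

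Lymphatic genes were treated apart. Lyve1, a hyaluronan receptor of lymphatic vessels that tissue macrophages also express, had values of 9.27, 10.58, 8.40 and 7.90 in R, 11.30, 11.69, 10.55 and 10.86 in the VdR tumors, and 10.24, 10.78, 9.94 and 9.97 in VR. VdR tumors were the highest as a group, although R tumor 2 lay above VdR tumor 4. Lyve1 was called higher in VdR versus R, by 2.06 (SE 0.47, adjusted p = 0.0158, limma), and the call was lost without R replicate 4 (1.85) or VdR replicate 2 (1.87). In VR versus R the difference was 1.19 (95% CI 0.18 to 2.21, adjusted p = 0.0909, limma). It was called without R replicate 2 (1.71), with array weights and with the replicate number as a block.

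Prox1, the factor that defines lymphatic endothelium, had values of 5.52, 5.46, 5.67 and 5.47 in R, 5.51, 5.43, 5.41 and 5.46 in the VdR tumors, and 5.44, 5.38, 5.40 and 5.48 in VR. All lay close to the filter value of 5.38, and the largest of the 3 differences was -0.11 (VR versus R, adjusted p = 0.197, limma). Mmrn1, a further gene of lymphatic endothelium and of platelets, lay between 4.81 and 5.06 in all 12 tumors, under the filter, and was not tested. The defining marker of lymphatic vessels was therefore near the filter in tumors where Lyve1 was high.

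Markers of macrophages were higher in the groups in which Lyve1 was higher. Of 16 macrophage genes, all of which passed the filter, 15 were called higher in VdR versus R, 13 in VR versus R and 0 in VR versus VdR by limma. Of all genes tested, 6.58%, 13.6% and 1.77% were called higher in these comparisons. In VR versus VdR, 5 of the macrophage genes had an unadjusted p under 0.05, and the methods' t-test called 0. The mean of the list ran from 9.36 to 9.70 in R, from 10.42 to 10.71 in VdR and from 10.29 to 10.44 in VR. Adgre1, Csf1r and Laptm5 had the lowest adjusted p in VR versus R, with differences of 1.45, 1.16 and 1.05. R tumor 2 and VR tumor 2 each had both the highest Lyve1 and the highest macrophage mean of their group. In VdR the order differed, since tumor 4 had the highest macrophage mean (10.71) and the lowest Lyve1 (10.55). R tumor 5 had the lowest Lyve1 of all 12 tumors (7.90). Its macrophage mean (9.57) lay above those of R tumors 1 and 4 (9.40 and 9.36). The part of macrophages in the Lyve1 values, and in those of Eng, Cd93 and Tek, which some myeloid cells express, was not tested. In VR versus VdR, where Tek, Ptprb and Eng were called higher in VR, the macrophage mean was lower in VR tumors 1, 4 and 5 than in any VdR tumor, and VR tumor 2 lay above VdR tumor 5.

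**Figure D5:**
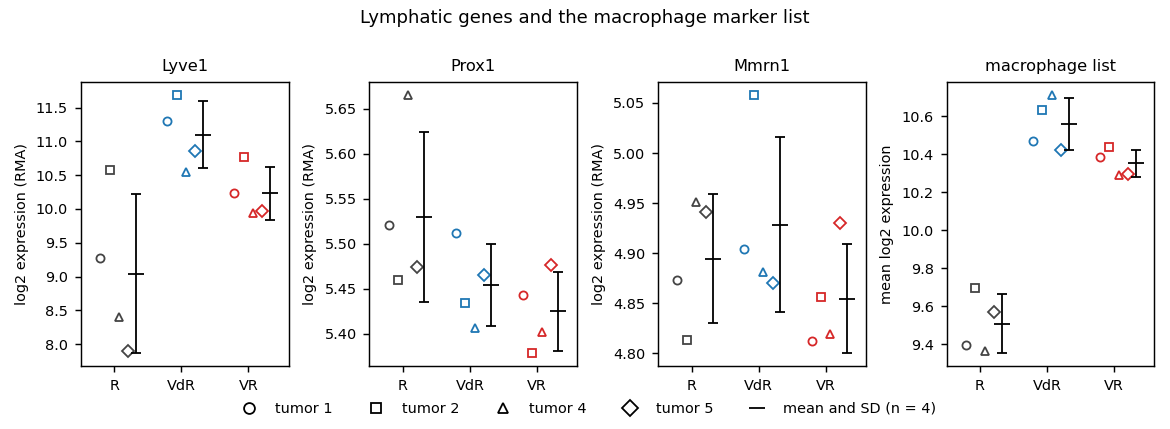
Log2 expression (y axis) of the lymphatic genes Lyve1, Prox1 and Mmrn1 and the mean log2 expression of 16 macrophage genes, 1 symbol per tumor in the R, VdR and VR groups, with the mean and SD of 4 tumors. Lyve1 spans 7.90 to 11.69, Prox1 stays between 5.38 and 5.67, and all VdR and VR macrophage means lie above those of R.

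Sele, which encodes E-selectin of activated endothelium, had values of 6.71, 6.61, 6.96 and 6.64 in R, 6.52, 6.60, 6.61 and 6.61 in the VdR tumors, and 6.60, 6.70, 6.66 and 6.54 in VR. Apart from R tumor 4, the values lay close together. The difference was -0.10 in VR versus R (adjusted p = 0.334, limma) and -0.15 in VdR versus R (adjusted p = 0.257, limma).

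Tumors of a group differed in most endothelial genes at once. R tumor 5 was the lowest of its group for 27 of the 39 genes, on average 0.33 below the group mean, and R tumor 1 was the highest for 24. In VR, tumor 5 was the highest for 19 genes and tumor 4 for 18. After group means were subtracted, the median correlation of the other 38 genes with Cdh5 over the 12 tumors was 0.74 (Pearson, as a description), and 27 of 38 were above 0.5. Pecam1 (0.95), Erg (0.94) and Gpihbp1 (0.90), which encodes the lipase anchor of capillaries, were the most alike. Among the 8 genes called between VR and R, the correlation was 0.77 for Cd93, 0.58 for Plvap, 0.53 for Clec14a, 0.44 for Eng, 0.42 for Ptprb, -0.05 for Tek, -0.16 for Cd34 and -0.25 for Aplnr. All genes of a tumor share 1 array and 1 RNA sample. The like counts over all genes tested were not made, so the shared pattern is not shown to be particular to endothelial genes. In the fit with array weights, R tumor 5 had the lowest weight of all 12 (0.46) and R tumor 1 the highest (3.77). The R means of that fit therefore lean on R tumor 1.

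Other genes of the pathway came from further lists. Of 28 other blood vessel genes, 8 were called higher and 2 lower in VR versus R (35.7%, beside 21.1% of all genes), 5 higher and 0 lower in VdR versus R (17.9%, beside 9.38%), and 1 higher in VR versus VdR (3.57%, beside 3.44%). Lyl1 (0.94), Fli1 (0.74) and Cyyr1 (1.22) had the lowest adjusted p in VR versus R. Lyl1 and Fli1 encode transcription factors that blood cells share with endothelium, and both were also called in VdR versus R, by 1.13 and 0.68. Cyyr1 differed by 0.22 there and was the gene called in VR versus VdR (1.00, adjusted p = 0.0223, limma). Kdr, the main VEGF receptor gene, was looked up after values were seen and was called higher in VR versus R (0.90, adjusted p = 0.00629, limma), and Flt1, its decoy partner, was not called (0.04).

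Of 14 genes of Notch signaling and of arteries and veins, 3 were called higher and 3 lower in VR versus R (42.9%, beside 21.1% of all genes). The leading genes were Nrp1 (0.86), a co-receptor for VEGF and semaphorins, Hey1 (-0.70), a Notch target, and Nr2f2 (-0.39), the factor of venous identity. In VdR versus R, 2 of the 14 were called higher and 1 lower (21.4%, beside 9.38% of all genes). Nrp1 (0.57) and Hey1 (-0.90) were among these, and Nr2f2 (-0.33) was not called. Of 9 measured genes of a further lymphatic list, 2 were higher and 1 lower in VR versus R (33.3%, beside the same 21.1%), namely Nrp2 (0.41), Figf (0.62), which encodes VEGF-D, and Foxc2 (-0.44). These 3 genes are also expressed outside vessels, in stromal cells. In VdR versus R, 1 of the 9 was called higher and 1 lower (22.2%, beside 9.38% of all genes). Foxc2 (-0.35) was the gene called lower, and Nrp2 (-0.0044) and Figf (0.41) were not called.

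Of 11 ligands that act on endothelium, 0 were called higher and 4 lower in VR versus R (36.4%, beside 21.1% of all genes), namely Pgf (-1.83), Adm (-1.48) and Vegfa (-0.67) with the lowest adjusted p, and Thbs1 (-0.49), an inhibitor of angiogenesis. The 11 differences had a median of -0.048, and 5 of them were above 0, among them Angptl4 (0.70), Cxcl12 (0.52) and Pdgfb (0.41), which were not called. Angpt1, the activating ligand of TIE2, differed by 0.07 (adjusted p = 0.674, limma). In VdR versus R, 1 of the 11 ligands was called (9.09%, beside 9.38% of all genes), namely Pgf (-1.24). Of 12 mural cell genes, which the mesenchymal tumor cells can also express, 2 were higher and 1 lower in VR versus R (25%, beside 21.1% of all genes), namely Anpep (0.72), Pdgfrb (0.31) and Rgs5 (-0.40). In VdR versus R, Rgs5 (-0.95) was the 1 mural cell gene called (8.33%, beside 9.38%). Rgs5 was also the 1 called in VR versus VdR, at 0.55 (8.33%, beside 3.44%). Of 6 measured platelet genes 1 was called in VR versus R (16.7%, beside 21.1% of all genes). This was Pf4, which macrophages also make (2.46-fold higher, adjusted p = 2.51e-04, limma). Itga2b (0.21) and Ppbp (0.60) followed without a call.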

How the data were processed

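RNA of 12 tumors was measured by the authors on Affymetrix affy_mogene_1_0_st_v1 arrays, 1 array per tumor. The submitters' processing notes name RMA and the oligo package. Background correction, quantile normalization and summarization were done by the authors, and the deposited log2 values hide any change in total RNA between groups. Genome build, scan date and batch are not given in the sources used here. Only the 21789 of 35556 probesets with exactly 1 gene symbol were used, since 12146 had none and 1621 several. Unused columns of per-sample values numbered 0.

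Groups and tumor numbers came from the sample labels. The filter kept genes with 4 or more arrays over 5.38, the 25th percentile. They were tested with limma 3.58.1 in R 4.3.3 (lmFit and eBayes) over all 12 tumors with 1 coefficient per group, two-sided, at an adjusted p of 0.05. Members and lists were chosen with earlier results of these data known. Values in all tumors were given for members called with at least a 1.3-fold difference, for Pecam1, Cdh5, Tek, Tie1 and Vwf, and for tip cell, lymphatic and selectin genes, and other lists by their 3 lowest adjusted p. Emcn, Adm, Kdr, Flt1, Angpt1, Thbs1, Angptl4, Cxcl12, Pdgfb and the receptor partners were named after their values were seen.

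The settings compared were no filter or one at 6.72, the mean of probesets, cyclic loess, array median centring, array weights, robust moderation with a trend, a fit of only the groups compared, a block for the replicate number, the methods' t-test (named in the paper for other assays), a threshold of 0.01 and leaving out each tumor. Nothing states that the tumors of a group came from separate cultures, so p-values measure the spread between grafts, and the number of arrays limits the precision.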

Additional observations from a re-analysis of the deposited data

Results flagged for a closer look

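In each group of 4 tumors, single values far from the rest were looked for in 120 sets of 4 values, and 6 were found. Chance gives about 1 in 20, so the number found was about what chance alone gives. VdR tumors lay above their group for Cldn5 in tumor 4 (9.60, next 8.90), Notch4 in tumor 4 (9.85, next 9.42) and Ecscr in tumor 5 (9.33, next 8.78). S1pr1, the sphingosine 1-phosphate receptor gene, was low in R tumor 5 (8.68, next 9.19). The tip cell genes Apln (10.23, next 9.52) and Angpt2 (8.40, next 6.90) were high in VR tumor 5. The cause of these values was not tested.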

How the results depend on the processing

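In VR versus R, 8 genes were called, and the count was 13 with array weights (8 higher and 5 lower), 5 with the methods' t-test and 6 to 10 when 1 tumor was left out. In VdR versus R, 2 were called, and the count was 4 with array weights, 0 with the methods' t-test, 0 at a threshold of 0.01 and 1 to 3 when 1 tumor was left out, with 1 without R replicate 4 or VdR replicate 2. In VR versus VdR, 4 were called, and the count was 0 with the methods' t-test, 0 at a threshold of 0.01 and 0 to 5 when 1 tumor was left out, with 0 without VR replicate 2 or 4 and 1 without VdR replicate 4 or 5. The tip cell minus blood vessel difference of VR versus R was -0.13 with Aplnr and Plvap among the tip cell genes. The cause was not tested, except that leaving out a tumor leaves fewer samples and the threshold of 0.01 is stricter by construction. No direction reversed in any setting for the single genes called in at least 1 setting. Genes never called, among them Apln and Erg in VR versus R, were not checked for this.

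Tumors with the same number did not deviate together throughout, with correlations of deviations from group means between -0.15 and 0.40, so the numbers were not taken as pairs. The tumors numbered 2 were the most alike, with 0.36 for R and VdR, 0.40 for R and VR and 0.23 for VdR and VR. With the replicate number as a block the counts were 8 in VR versus R (7 of them shared), 2 in VdR versus R (2 shared) and 4 in VR versus VdR (3 shared). Prox1 and Mmrn1 lie too near the low end of the arrays to bear on small differences.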
